A study of Homo sapiens with 12 samples.

Results

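The transcriptional response of untransfected LX-2 cells to transforming growth factor β1 (TGF-β1) was described across gene families that lie outside the classic fibrosis genes. LX-2 is an immortalised human hepatic stellate cell line. Stellate cells are the liver pericytes that store vitamin A in health and turn into matrix-producing myofibroblasts in injured liver. The 6 libraries used are the 3 of cells given 5 ng/ml recombinant human TGF-β1 for 24 h (TGFB) and the 3 of untreated cells (con), of 12 libraries in the series. The other 6 come from LX-2 cells transfected with siRNA against NAT10, with (SiNAT10_TGFB) and without (SiNAT10) the same TGF-β1 treatment. The cells of all 4 groups were grown in medium with 10% fetal bovine serum and are labelled WT. The labels call the replicates biological and do not name separate cultures, so p-values measure the spread between these libraries, which may be partly technical.

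TGF-β1 binds a pair of serine/threonine kinase receptors that phosphorylate SMAD2 and SMAD3, which enter the nucleus with SMAD4 and act on promoters together with other transcription factors. The same receptors also act through MAP kinases. In stellate cells TGF-β1 is best known for inducing collagen and fibronectin, and its other outputs include secreted ligands, transcription factors, adhesion and cytoskeletal proteins and noncoding RNAs, which are the subject here.

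The sources used here name neither a polyadenylation selection nor a strand setting. Total counts ran from 29797990 to 35132582 per library in the 6 libraries. The 10 most counted genes took 8.01% to 8.25% of the counts in the TGFB libraries and 4.90% to 5.18% in the con libraries. The first principal component of the 6 libraries held 76.3% of their variance and separated the groups. Of 14 stellate cell and fibroblast markers in the table, LRAT and DCN had no count in any of the 6 libraries, and the summed level of the list was 11240 to 11830 CPM in TGFB and 5632 to 5855 CPM in con. CPM are counts per 1000000 counts of the library, here after scaling of library size with the trimmed mean of M values (TMM) except in the marker sums. Much of the stellate sum was COL1A1, which after this scaling had a mean of 7550 CPM in TGFB and 3041 CPM in con. Of the 10 markers of that list that were tested, 8 were called higher and 1 lower, against 11.9% and 12.2% of all genes tested. Hepatocyte markers summed to 17.7 to 18.2 CPM in TGFB and 20.3 to 23.2 CPM in con, and 7 of 12, among them ALB and HNF4A, had 3 counts or fewer in every library. Epithelial markers summed to 741 to 797 CPM in TGFB and 544 to 589 CPM in con, nearly all of it KRT8 and KRT18, while KRT19, CDH1 and CFTR had 3 counts or fewer in every library. Of 5 epithelial markers tested 3 were called higher and 0 lower, and of 2 hepatocyte markers tested 0 higher and 1 lower. Endothelial and leukocyte markers each summed to 15.2 CPM or less in every library. In bulk RNA, a change in how many cells express a gene and a change in its RNA per cell cannot be told apart.

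Differences were tested with edgeR's quasi-likelihood test on the counts, and are given as log2 fold changes of TGFB over con with their standard error (±) and an adjusted p. Of 18560 genes with enough counts to test, 2213 were higher in TGFB (11.9%) and 2259 were lower (12.2%) at an adjusted p under 0.05, 24.1% in all. Changes of at least 1 on the log2 scale were called in 601 genes (3.24%) that were higher and in 399 genes (2.15%) that were lower. The median size of a change over all genes was 0.23 on the log2 scale. The CPM of the groups did not overlap for 7569 genes (40.8%). With library size alone in place of TMM the median of all genes moved by -0.14, and 1410 genes were higher and 4623 lower. Higher genes were thus 49.5% of the calls with TMM and 23.4% with library size alone. Levels and changes below are relative to the TMM scale, and families described below whose majority turns with the scaling are given with both.

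**Figure D1:**
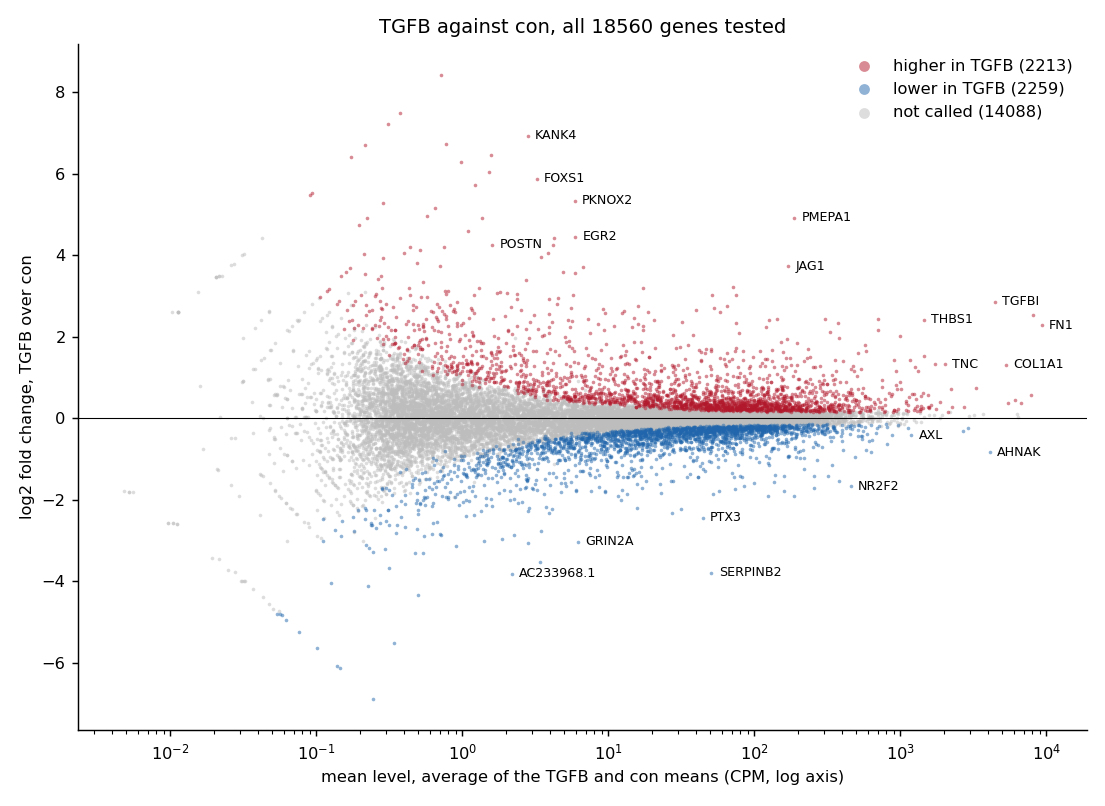
Each point is a gene, plotted by its mean CPM (log axis) and its fitted log2 fold change of TGFB over con. Red points (2213) were called higher in TGFB, blue points (2259) lower, and grey points were not called. Fitted values of genes near 0 CPM in one group depend on the prior count. FN1 and TGFBI lie at the far right above 0 and AHNAK below it.

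A few genes with very high counts took a larger share of the RNA pool in TGFB than in con. Among the 10 genes with the largest gain in CPM were FN1, TGFBI, COL1A1, ACTB, THBS1, MYH9, ACTG1, TNC and ACTN1, which are matrix, matrix-bound and actomyosin genes. Together these 9 stood at 64204 CPM in TGFB and at 28686 CPM in con. TGFBI, a matrix protein named for its induction by TGF-β, was at 7952, 7611 and 7958 CPM in the TGFB libraries and at 1007, 1127 and 1098 CPM in the con libraries. THBS1, thrombospondin 1, which can release active TGF-β from its latent complex, was at 2373, 2508 and 2475 CPM in TGFB and at 438, 476 and 463 CPM in con. The groups were far apart for both genes (log2 fold change 2.42 ± 0.06, adjusted p = 2.12e-19 for THBS1). The 10 largest losses were AHNAK, ANXA2, NR2F2, PKM, RHOBTB3, COL12A1, DST, AXL, LAMA5 and CAV1, which summed to 11272 CPM in TGFB and 17116 CPM in con. AHNAK, a very large scaffold protein beneath the plasma membrane, had 2819.6, 3008 and 2942 CPM in TGFB against 5426, 5263 and 5007 CPM in con (log2 fold change -0.84 ± 0.05, adjusted p = 5.33e-12). CAV1, the coat protein of caveolae, had 337, 334 and 327 CPM in TGFB against 631, 639 and 645 CPM in con.

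Among genes with a mean of at least 50 counts, the 12 largest rises included several transcription factors and signalling genes of low or no expression in con. FOXS1, a forkhead factor, was at 7.66, 4.54 and 6.85 CPM in TGFB and at 0.116, 0.133 and 0.0625 CPM in con. PKNOX2, a TALE homeobox factor, was at 11.2, 10.6 and 12.7 CPM in TGFB and at 0.261, 0.267 and 0.312 CPM in con. EGR2, a zinc finger factor of the early growth response family, was at 12.1, 10.3 and 11.7 CPM in TGFB and at 0.755, 0.333 and 0.437 CPM in con. In each of these genes every con library was below 1 CPM and every TGFB library above 4 CPM. The others were PMEPA1 (a feedback inhibitor of TGF-β signalling), POSTN (periostin, a matrix protein), MYCT1, WNT7A, JAG1, LPAR5 (a receptor of lysophosphatidic acid), ACTBL2 (an actin-like gene that shares sequence with the abundant actins), the sense intronic transcript AC037198.1 and KANK4, with log2 fold changes of 3.58 for ACTBL2 to 4.91 for PMEPA1, KANK4 aside. AC037198.1 (hg38 chr15:39586561-39587293) lies within the span of THBS1 (hg38 chr15:39581079-39599466) on the same strand. Whether its counts are separate from unspliced RNA of THBS1 was not tested.

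Genes switched on from near 0 were KANK4, ODAPH, GDF6 and C5orf46. None of them had more than 2 counts in any con library, and no fold change is given for them. KANK4, of a family of ankyrin repeat proteins at focal adhesions, reached 5.71, 5.62 and 5.37 CPM in TGFB. GDF6, a ligand of the bone morphogenetic protein (BMP) family, reached 3.06, 3.2 and 2.7 CPM, ODAPH 3.27, 2.55 and 3.48 CPM and C5orf46 2.1, 2.14 and 1.55 CPM in the TGFB libraries. No gene went the other way by the same rule.

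The 12 largest falls by the same rule were of genes of mixed function. SERPINB2, an inhibitor of plasminogen activators, had 6.67, 7.08 and 6.78 CPM in TGFB against 91.6, 93.7 and 99.2 CPM in con (log2 fold change -3.79 ± 0.09, adjusted p = 7.71e-19). PTX3, a soluble pattern recognition protein, had 14.8, 13.4 and 13.1 CPM in TGFB against 75.9, 71.1 and 77.3 CPM in con. MYPN, which encodes the sarcomeric protein myopalladin, had 10.2, 7.89 and 9.11 CPM in TGFB against 42.3, 46.2 and 48.3 CPM in con. The groups lay well apart for all 3 genes. At lower levels, GRIN2A (an NMDA receptor subunit) had 1.33, 0.683 and 2.06 CPM in TGFB against 12, 10.5 and 10.5 CPM in con. APLN, the ligand of the apelin receptor, had 1.24, 1.21 and 1.45 CPM in TGFB against 6.22, 6.93 and 6.37 CPM in con. DIO2, which activates thyroid hormone, had 1.2, 0.59 and 1.08 CPM in TGFB against 4.79, 3.93 and 5.25 CPM in con. SPTLC3, a subunit of serine palmitoyltransferase, B3GALT5, a galactosyltransferase, the long noncoding RNA AL713998.1 and the neighbours EVI2A and EVI2B fell by 2.77 to 3.54 on the log2 scale. The exons of EVI2A and EVI2B overlap other genes on the same strand over 25.3% and 30.1% of their length. AC233968.1, an unprocessed pseudogene, had 0.37, 0.249 and 0.236 CPM in TGFB and an uneven 0.407, 3.47 and 8.37 CPM in con, so that its fall rests mainly on replicates 2 and 3 of con. It fell by 3.81 on the log2 scale, and without replicate 3 of con it fell by 2.73 (adjusted p = 0.0452).

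The genes described by family came from 77 lists with 2868 distinct members in the table, of which 2282 passed the filter on low counts. Of those tested, 494 were higher and 336 lower in TGFB, 36.4%, against 28.2% of the 13870 protein-coding genes tested. More members were higher than lower in 45 families, the reverse held in 27 families, and 5 were even. With library size alone the majority turned to the other direction in 24 of the 77 families.

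**Figure D2:**
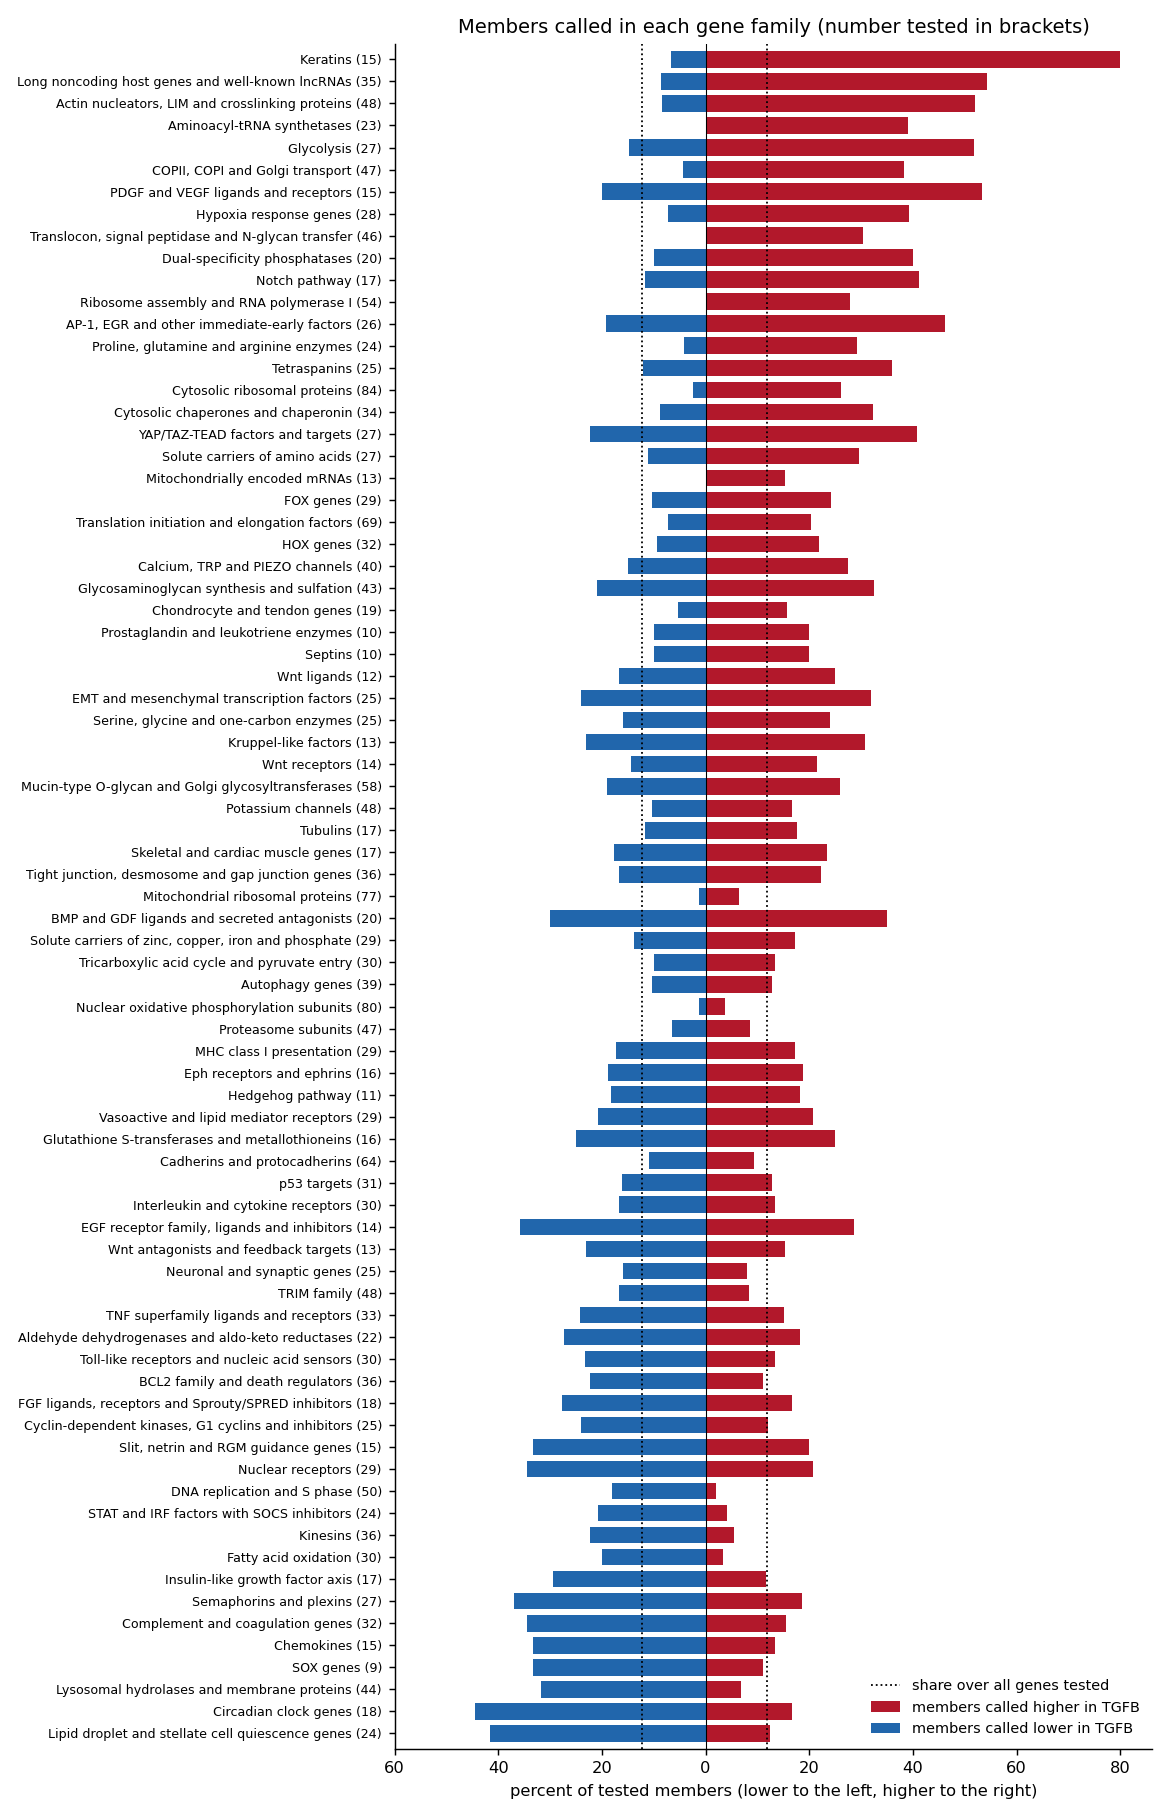
For each family, bars show the percent of tested members called higher (red, right) and lower (blue, left) in TGFB. Dotted lines mark the shares over all genes tested (11.9% higher, 12.2% lower). Keratins lie at the top and lipid droplet and quiescence genes at the bottom.

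In the Notch pathway, in which a ligand on one cell triggers cleavage and activation of a receptor on its neighbour, 7 of 17 tested members were higher and 2 lower (median log2 fold change 0.33). The ligand JAG1 (hg38 chr20:10637684-10673999) stood at 307, 316 and 329.7 CPM in the TGFB libraries and at 25, 24 and 22.6 CPM in the con libraries (log2 fold change 3.73 ± 0.07, adjusted p = 1.14e-20). The receptor NOTCH3 had 48.5, 41.1 and 57 CPM in TGFB against 18.6, 23.5 and 20.2 CPM in con, and the target repressor HES1 had 90.9, 94.4 and 78.2 CPM against 45.2, 33 and 45.4 CPM in con (log2 fold change 1.09 ± 0.1, adjusted p = 7.43e-09). JAG1 was among the 12 largest rises, whereas the groups of HES1 and NOTCH3 lay apart by a smaller gap. LFNG, a glycosyltransferase that modifies Notch receptors, rose by 0.85 ± 0.1. The ligand DLL1 fell by 0.63 on the log2 scale. The receptor NOTCH1 was not called (0.08).

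Wnt ligands are secreted lipid-modified glycoproteins that act through Frizzled receptors. WNT5B (hg38 chr12:1529891-1647243) was at 250.1, 225 and 238 CPM in TGFB and at 62, 64.1 and 70.2 CPM in con (log2 fold change 1.86 ± 0.07, adjusted p = 5.64e-16). WNT5A was at 121, 134 and 128 CPM in TGFB and at 41.5, 40.2 and 39.5 CPM in con (log2 fold change 1.66 ± 0.08, adjusted p = 6.45e-14). Both encode ligands known mainly for β-catenin-independent signalling. WNT7A was at 7.35, 6.68 and 7.76 CPM in TGFB against 0.494, 0.533 and 0.281 CPM in con. These were the 3 rises among 12 tested ligands, of which 2 others, at low levels, fell.

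Secreted Wnt antagonists moved in both directions. DKK1, which blocks the coreceptors LRP5 and LRP6, had 172, 183 and 169 CPM in TGFB against 471, 456 and 478 CPM in con (log2 fold change -1.42 ± 0.06, adjusted p = 7.99e-15). SFRP1, which binds Wnt ligands, had 90.8, 87.6 and 85.1 CPM in TGFB against 230.1, 233 and 237 CPM in con (log2 fold change -1.41 ± 0.08, adjusted p = 4.49e-12). DKK3, a divergent member of the Dickkopf family, rose by 0.54 ± 0.06 on the log2 scale. Of the receptors, PTK7 (0.66 ± 0.07) and FZD4 (0.56 ± 0.1) rose, and FZD7 (-0.61 ± 0.08) and ROR2 (-0.33 ± 0.08) fell. In all 3 of 14 tested receptors were higher and 2 lower, but with library size alone 2 were higher and 6 lower.

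Platelet-derived and vascular endothelial growth factors (PDGF and VEGF) act through receptor tyrosine kinases on mesenchymal and vascular cells, and PDGF is a classic mitogen of stellate cells. Of 15 tested members 8 were higher and 3 lower. VEGFA had 116, 116 and 111 CPM in TGFB against 35.2, 33.3 and 36.1 CPM in con (log2 fold change 1.71 ± 0.08, adjusted p = 2.36e-14). PDGFB had 48, 42 and 43.6 CPM in TGFB against 9.44, 13.1 and 10.2 CPM in con (log2 fold change 2.03 ± 0.11, adjusted p = 4.66e-13). Its receptor PDGFRB had 65.7, 62.1 and 83.9 CPM in TGFB against 29.3, 27.8 and 29.8 CPM in con, so that ligand and receptor rose in the same libraries. The coreceptors of the neuropilin family diverged: NRP2 was at 273, 281 and 286 CPM in TGFB and at 109, 113 and 117 CPM in con, while NRP1 was at 44.6, 45.5 and 48.3 CPM in TGFB and at 83.7, 75.6 and 82 CPM in con (log2 fold change -0.8 ± 0.07, adjusted p = 5.13e-09). PDGFC was not called (0.01).

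Within the wider TGF-β superfamily, activin and its inhibitor rose together. INHBA, which encodes the subunit of activin A, had 257, 281 and 255 CPM in TGFB against 70.2, 65.8 and 70.4 CPM in con (log2 fold change 1.94 ± 0.07, adjusted p = 2.47e-16). FSTL3, a secreted follistatin-like inhibitor of activins, had 305, 305 and 315 CPM in TGFB against 78.2, 90.5 and 87.8 CPM in con (log2 fold change 1.85 ± 0.08, adjusted p = 2.57e-14). The BMP modulators CRIM1 and FSTL1 rose by 0.52 and 0.4, whereas the BMP antagonists BMPER (-1.18 ± 0.08), CHRDL1 (-0.73 ± 0.11) and NOG (-1.07 ± 0.21) and the ligand BMP8B (-1.03 ± 0.19) fell. In all 7 of 20 tested genes were higher and 6 lower, against 5 and 8 with library size alone.

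Axon guidance families, which also steer mesenchymal and endothelial cells, moved in both directions. Of 27 semaphorins and plexins 5 were higher and 10 lower. PLXND1, the receptor of SEMA3E, had 113, 104 and 119 CPM in TGFB against 31.7, 38.5 and 37.8 CPM in con. SEMA7A, a membrane-anchored semaphorin, rose by 0.84 ± 0.07. The secreted SEMA3B had 25.5, 18.3 and 24 CPM in TGFB against 77.1, 87 and 82.6 CPM in con, and SEMA3D (-1.41 ± 0.13) and SEMA6D (-1.99 ± 0.3) fell too. Among the netrin and Slit genes, the receptor UNC5B rose (2.96 ± 0.25), while the ligands NTN4 (-1.25 ± 0.07) and SLIT2 (-0.98 ± 0.06) fell. In the Eph family, EPHB2 (0.97 ± 0.08) and the ligand EFNB2 (0.73 ± 0.07) rose and EPHA4 (-1.44 ± 0.11) fell.

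Other families of receptors and ligands were called in both directions. In the tumour necrosis factor superfamily 5 of 33 were higher and 8 lower. TNFRSF1B, the second receptor of tumour necrosis factor, had 5.62, 6.21 and 5.13 CPM in TGFB against 25.5, 26 and 26.5 CPM in con (log2 fold change -2.2 ± 0.12, adjusted p = 1.58e-12), whereas TNFRSF1A was not called (0.02). Of 29 receptors of vasoactive and lipid mediators 6 were higher and 6 lower. Receptors of lysophosphatidic acid moved apart: LPAR5 was at 12.6, 13.6 and 11.5 CPM in TGFB against 1.28, 0.867 and 0.687 CPM in con, and LPAR1 fell by 1.04. The prostaglandin receptor PTGER4 fell by 1.45 on the log2 scale. The EGF receptor family split 4 higher to 5 lower of 14. HBEGF, a ligand of the EGF receptor, rose by 0.71, and the EGF receptor inhibitor ERRFI1 fell by 0.81, with EGFR itself not called (-0.1). In the insulin-like growth factor axis, with 2 of 17 higher and 5 lower, the adaptor IRS1 fell by 0.97 and IRS2 by 0.6, and the binding protein IGFBP7 rose by 1.27 on the log2 scale.

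**Figure D3:**
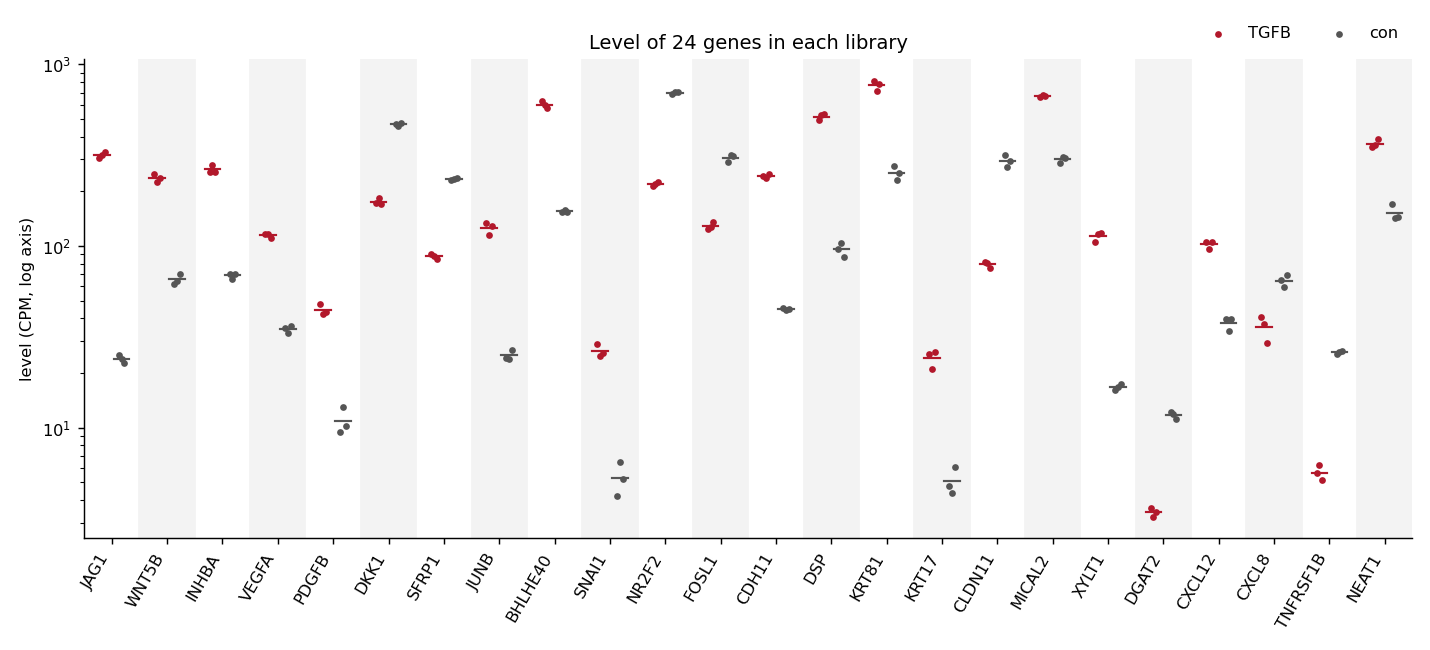
Level of 24 genes named in the text in each library (CPM, log axis), with the 3 TGFB libraries in red on the left and the 3 con libraries in grey on the right of each pair. Horizontal strokes are group means. The 24 genes were picked from genes called, and their groups do not overlap, as was so for 40.8% of all genes tested. For CXCL8 the TGFB libraries lie between 29.4 and 40.6 CPM and the con libraries between 59.1 and 68.9 CPM.

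Transcription factors as a class were called slightly more often than all genes and slightly less often than protein-coding genes. Of 1184 genes with a transcription factor family in the authors' deposited annotation, 147 were higher and 166 lower (26.4%). The share was 24.1% over all genes tested and 28.2% over protein-coding genes. Basic helix-loop-helix factors stood above the share of the class, with 20 of 57 higher and 9 lower (13 and 13 with library size alone). So did basic leucine zipper factors, with 10 of 45 higher and 11 lower (7 and 19 with library size alone). Several smaller families did too, among them Rel homology factors, with 6 of 10 higher and 1 lower (1 and 2 with library size alone). C2H2 zinc finger genes stood below the share of the class, with 42 of 531 higher and 56 lower (25 and 144 with library size alone). Named after their values were seen, the basic helix-loop-helix calls included MYC (0.95 ± 0.07), TCF4 (1.34 ± 0.08) and ID3 (0.55 ± 0.08), which rose, and MITF (-1.86 ± 0.12), ID2 (-1.44 ± 0.14) and ATOH8 (-1.86 ± 0.24), which fell. ID2, ID3 and ATOH8 are known targets of BMP signalling, and ID3 moved opposite to the other members of that trio.

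Among AP-1, EGR and other immediate-early factors, which link kinase signals to transcription, 12 of 26 were higher and 5 lower 24 h after addition of the ligand. JUNB was at 133, 115 and 129 CPM in TGFB and at 24.3, 23.8 and 26.8 CPM in con (log2 fold change 2.33 ± 0.09, adjusted p = 7.36e-16). FOSL1, a partner of JUN proteins in AP-1, had 123, 128 and 136 CPM in TGFB against 291, 317 and 311 CPM in con (log2 fold change -1.25 ± 0.07, adjusted p = 4.51e-12). FOSL2 (-0.55 ± 0.06) also fell, and IER3 rose by 1.47 ± 0.06. JUN (0.15) and JUND (-0.1) were not called.

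Of the factors of mesenchymal transition, SNAI1, a repressor of E-cadherin, had 28.7, 24.6 and 25.9 CPM in TGFB against 4.21, 6.5 and 5.18 CPM in con (log2 fold change 2.32 ± 0.14, adjusted p = 4.2e-12). RUNX1 rose by 0.54 ± 0.06 and TBX3 by 0.5 ± 0.05, while RUNX2 (-0.59 ± 0.09) and ZEB2 (-0.31 ± 0.07) fell and ZEB1 was not called (-0.05). SOX4, a known TGF-β target, rose by 1.71 ± 0.09 as the only called rise among 9 tested SOX genes, of which 3 were lower. Of 29 tested forkhead genes 7 were higher and 3 lower, with rises of FOXP1 (1.61 ± 0.09), FOXC2 (1.34 ± 0.13) and FOXO1 (1.2 ± 0.12). Kruppel-like factors split 4 higher to 3 lower, with the TGF-β-inducible KLF10 higher (0.56 ± 0.06), KLF5 lower (-0.75 ± 0.11) and KLF6 not called (-0.04). With library size alone they split 4 to 5, and forkhead genes 6 to 8.

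Nuclear receptors fell more often than they rose (10 and 6 of 29 tested, 12 and 2 with library size alone). NR2F2, also called COUP-TFII (hg38 chr15:96325938-96340263), had 214, 219.5 and 226 CPM in TGFB against 688, 701 and 704 CPM in con (log2 fold change -1.67 ± 0.05, adjusted p = 6.94e-17). NR3C2, the mineralocorticoid receptor, fell by 1.11. VDR, the vitamin D receptor, rose to 69.2, 67.3 and 67.6 CPM in TGFB, against 31.5, 34.4 and 32.5 CPM in con (log2 fold change 1.05 ± 0.07, adjusted p = 1.28e-10). RARA, a retinoic acid receptor, rose by 0.61 ± 0.09.

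Among 18 circadian clock genes 8 were lower and 3 higher (10 and 1 with library size alone). BHLHE40, a repressor of clock transcription that also responds to hypoxia, had 628, 599 and 578 CPM in TGFB against 153, 159 and 153 CPM in con (log2 fold change 1.96 ± 0.05, adjusted p = 6.31e-18). Its relative BHLHE41 fell by 1.00 at a low level. The repressors NR1D1 (-0.6 ± 0.1) and NR1D2 (-0.43 ± 0.08) and the period gene PER3 (-0.51 ± 0.09) fell, and CLOCK (-0.19) and CRY1 (0.07) were not called. All libraries of treated cells were taken at 24 h, so no other phase of the clock was seen. The dual-specificity phosphatases, which switch off MAP kinases, were higher in 8 and lower in 2 of 20 (5 and 3 with library size alone), with DUSP1 higher (1.29 ± 0.07) and DUSP10 lower (-0.65 ± 0.08).

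Cadherins hold cells to their neighbours, and 2 of them rose with well separated groups. The type II cadherin CDH11, a cell-cell adhesion receptor of mesenchymal cells, was at 242, 237 and 248 CPM in TGFB and at 45.7, 44.2 and 45.2 CPM in con (log2 fold change 2.43 ± 0.06, adjusted p = 1.6e-18). N-cadherin, CDH2, was at 649.9, 651 and 636 CPM in TGFB and at 271, 283 and 278 CPM in con (log2 fold change 1.22 ± 0.05, adjusted p = 1.07e-14). PCDH7 (-1.18 ± 0.08), FAT4 (-1.41 ± 0.12) and CDH13 (-0.39 ± 0.05) fell. Over the 64 tested cadherins and protocadherins only 6 rose and 7 fell.

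Junction genes changed in both directions. DSP, the desmosomal plaque protein desmoplakin, had 493, 524 and 531 CPM in TGFB against 96.9, 104 and 87.4 CPM in con (log2 fold change 2.43 ± 0.07, adjusted p = 7.34e-18). GJA1, the gap junction protein connexin 43, rose by 1.86 ± 0.14. CLDN11, a tight junction claudin, had 81.2, 80.7 and 75.6 CPM in TGFB against 318, 273 and 293 CPM in con (log2 fold change -1.9 ± 0.07, adjusted p = 5.64e-16), and the exons of CLDN11 overlap another gene on the same strand over 18.3% of their length. The plaque protein PKP2 (-1.01 ± 0.11) and occludin, OCLN (-0.62 ± 0.1), fell. The junction family split 8 higher to 6 lower of 36, and 6 to 9 with library size alone.

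Keratins, the intermediate filaments of epithelia, were the family with the highest share of rises. Of 55 listed genes 15 were tested, and 12 of these were higher and 1 lower, the same counts as with library size alone. KRT81 had 808, 718 and 785 CPM in TGFB against 278, 231 and 252 CPM in con (log2 fold change 1.6 ± 0.09, adjusted p = 8.03e-13). KRT17 had 25.3, 21 and 26 CPM in TGFB against 4.79, 4.37 and 6.06 CPM in con (log2 fold change 2.24 ± 0.18, adjusted p = 9.09e-10). KRT14, a basal keratin, had 4.91, 3.88 and 6.11 CPM in TGFB against 0.407, 0.467 and 0.531 CPM in con. KRT86 rose by 1.45 ± 0.13. KRT10 (-0.04) was not called. The hair keratins KRT81 and KRT86, and the type I keratins KRT14 and KRT17, are close paralogs, and how reads shared between them were counted is not known.

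Of 48 genes of actin-regulating proteins 25 were higher and 4 lower (19 and 8 with library size alone). MICAL2, an actin-oxidising monooxygenase that promotes nuclear entry of SRF coactivators, had 659.9, 675 and 674 CPM in TGFB against 286, 309.9 and 305 CPM in con (log2 fold change 1.16 ± 0.05, adjusted p = 4.46e-14). The focal adhesion protein TES (1.00 ± 0.07), the actin bundler LCP1 (0.72 ± 0.05) and α-actinin 1, ACTN1 (0.74 ± 0.06), rose. The LIM-only proteins FHL1 (-0.58 ± 0.08) and FHL2 (-0.33 ± 0.06) fell. Of 17 tested skeletal and cardiac muscle genes, cardiac actin ACTC1 (3.2 ± 0.14), ANKRD1 (1.64 ± 0.07) and MYOM3 (1.87 ± 0.23) were among the 4 that rose, and 3 others were called lower, ACTN2 (-0.47 ± 0.13), TNNT1 (-0.24 ± 0.06) and, at few counts, ACTA1 (-1.71 ± 0.61). Each of these 3 calls was lost when a library was left out. ACTN2 was at -0.37 without replicate 2 of con (adjusted p = 0.0573) and TNNT1 at -0.19 without replicate 3 of con (adjusted p = 0.0619). ACTA1 was not called without replicate 1 or 2 of either group, with -1.27 without replicate 2 of con (adjusted p = 0.216).

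**Figure D4:**
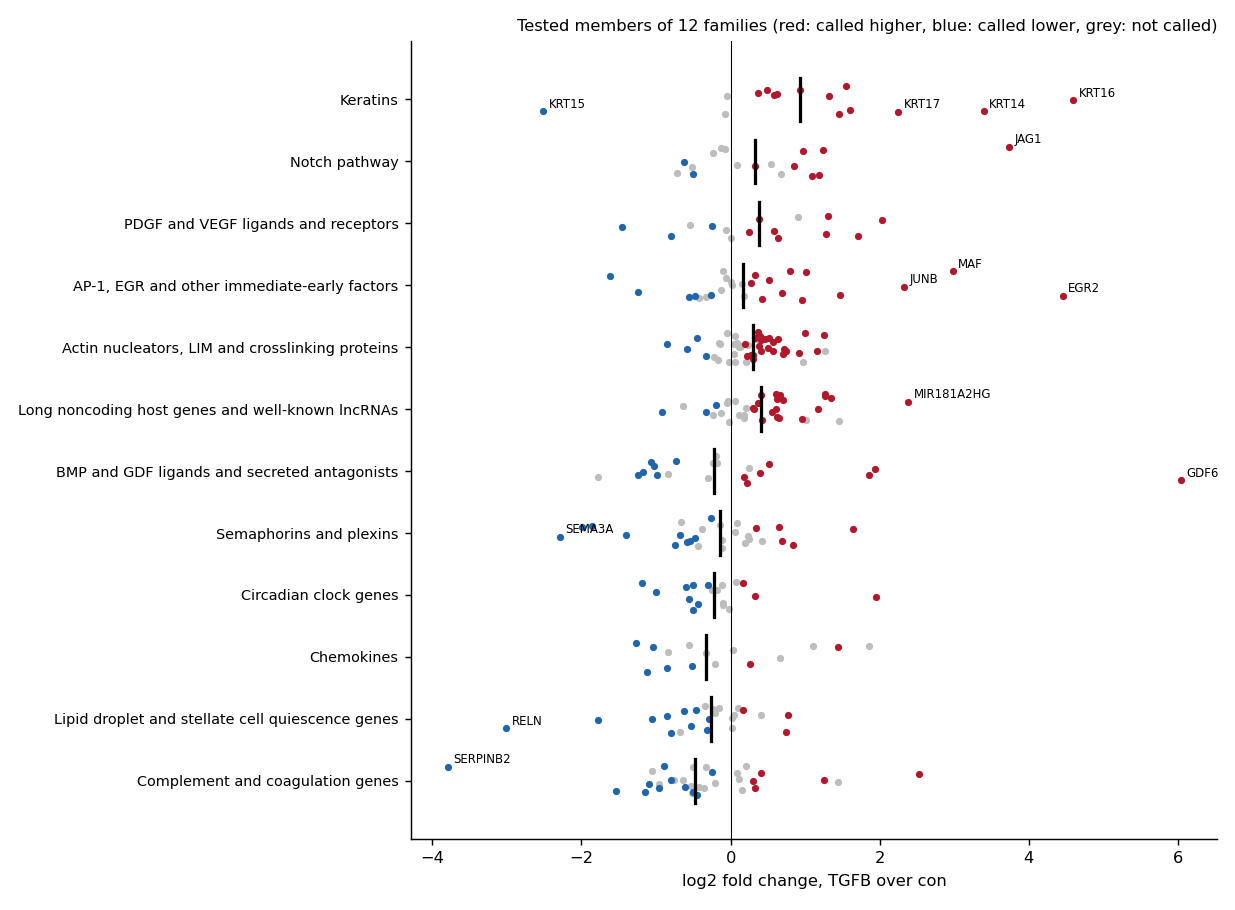
Each point is a tested member of 1 of 12 families, placed by its fitted log2 fold change of TGFB over con and coloured by its call (red higher, blue lower, grey not called). Black strokes are family medians, from 0.94 for keratins to -0.48 for complement and coagulation genes. Most members beyond 2.2 in either direction are named, and the value of GDF6 is fitted against con libraries near 0.

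Of 48 potassium channels 8 were higher and 5 lower (6 and 6 with library size alone). KCNK3, a tandem pore potassium channel also called TASK-1, had 10.5, 9.01 and 11.2 CPM in TGFB against 1.16, 1.17 and 1.44 CPM in con (log2 fold change 3.03 ± 0.19, adjusted p = 1.55e-11). KCNA7, a voltage-gated potassium channel, had 9.54, 9.79 and 13.4 CPM in TGFB against 0.784, 1.1 and 0.906 CPM in con. KCNQ3 fell by 1.85, and the large-conductance channel KCNMA1 was not called (0.06). Of 40 calcium, TRP and PIEZO channels 11 were higher and 6 lower. The mechanosensitive channel PIEZO1 rose by 0.61 ± 0.09, the inositol trisphosphate receptor ITPR2 by 0.55 ± 0.07, and the TRP channel TRPM7 fell (-0.41 ± 0.06). Of the tetraspanins, 9 of 25 were higher and 3 lower (8 and 6 with library size alone), with rises of TSPAN13 (1.18 ± 0.1) and TSPAN2 (1.43 ± 0.13).

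Glycosaminoglycan synthesis genes, which build the sugar chains of proteoglycans, contained a rise at the first step. XYLT1, the xylosyltransferase that starts chondroitin and heparan sulfate chains (hg38 chr16:17101769-17470881), had 105, 117 and 118 CPM in TGFB against 16.1, 16.8 and 17.3 CPM in con (log2 fold change 2.76 ± 0.1, adjusted p = 1.27e-15). The chondroitin sulfotransferase CHST11 (1.66 ± 0.08), the dermatan sulfate epimerase DSE (1.00 ± 0.06) and the heparan sulfate sulfotransferase NDST1 (0.96 ± 0.06) rose. Heparanase, HPSE (-1.11 ± 0.15), and the hyaluronan synthase HAS2 (-0.66 ± 0.11) fell. The family as a whole split 14 higher to 9 lower of 43, and 11 to 13 with library size alone.

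Genes of the early secretory pathway were called mostly higher with TMM and about evenly with library size alone. Of 46 translocon, signal peptidase and N-glycan transfer genes 14 were higher and none lower, and with library size alone 4 were higher and 3 lower and the median was -0.02 in place of 0.12 on the log2 scale. SEC61A1, the channel of the translocon, rose by 0.48 ± 0.05, and SSR3 by 0.69 ± 0.07. Of 47 coat and Golgi transport genes 18 were higher and 2 lower (8 and 8 with library size alone). The collagen-exporting coat subunit SEC24D (0.61 ± 0.06) and the transcription factor CREB3L1 (0.55 ± 0.07) rose. Lysosomal genes went the other way, with 14 of 44 lower and 3 higher (26 and 1 with library size alone), among them FUCA1 (-0.71 ± 0.11) and CTSL (-0.36 ± 0.06), with CTSZ higher (0.34 ± 0.07).

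Of 27 glycolysis genes 14 were higher and 4 lower (6 and 4 with library size alone). PFKFB3, which makes an allosteric activator of phosphofructokinase, rose by 0.78 ± 0.07. The glucose transporter SLC2A1 had 254, 237 and 251 CPM in TGFB against 139, 154 and 151 CPM in con (log2 fold change 0.74 ± 0.07, adjusted p = 7.43e-09), whereas SLC2A3 fell (-0.56 ± 0.06). PGK1 rose by 0.36 ± 0.05, PKM fell (-0.24 ± 0.05) and GAPDH was not called (0.07). Hypoxia response genes, which share members with this list, were higher in 11 and lower in 2 of 28 (8 and 5 with library size alone), with rises of VEGFA, the collagen prolyl hydroxylase P4HA2 (1.07 ± 0.06) and ANGPTL4 (2.45 ± 0.15), with ADM, adrenomedullin, lower (-1.33 ± 0.07).

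Few mitochondrial genes were called with TMM. Of 80 nuclear oxidative phosphorylation subunits 3 were higher and 1 was lower, and 2 of 13 mitochondrially encoded mRNAs were higher (1 and 11, and 0 and 4, with library size alone). Fatty acid oxidation genes were lower in 6 and higher in 1 of 30 (17 and 1 with library size alone), with ECI2 (-0.96 ± 0.08), CROT (-0.63 ± 0.1) and the carnitine transferase CPT1A (-0.42 ± 0.08) lower. Of 24 tested lipid droplet and stellate cell quiescence genes 10 were lower and 3 higher. DGAT2, an enzyme of triglyceride synthesis, had 3.61, 3.23 and 3.44 CPM in TGFB against 12.2, 11.9 and 11.2 CPM in con (log2 fold change -1.78 ± 0.15, adjusted p = 4.19e-09). NGFR (-1.05 ± 0.15) and the retinoic acid binding protein CRABP2 (-0.79 ± 0.13) fell. The retinol transporter STRA6 rose (0.74 ± 0.17), as did BAMBI (0.77 ± 0.16), a decoy receptor of TGF-β. Of 27 amino acid carriers 8 were higher and 3 lower, a majority that turned to 5 and 7 with library size alone. SLC7A1 (0.55 ± 0.05) and SLC7A5 (0.64 ± 0.08) rose, and the cystine carrier SLC7A11 fell (-0.9 ± 0.11).

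The calls of translation genes turned with the scaling. Cytosolic ribosomal proteins were higher in 22 and lower in 2 of 84 with TMM, and higher in 1 and lower in 3 with library size alone. Ribosome assembly genes split 15 to 0 of 54 (4 to 5 with library size alone) and aminoacyl-tRNA synthetases 9 to 0 of 23 (1 to 3). Their medians with TMM lay between 0.12 and 0.15 on the log2 scale, and with library size alone between -0.02 and 0.01.

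DNA replication genes were lower in 9 and higher in 1 of 50 (34 and 1 with library size alone). MCM2 fell by 0.28 and E2F8 by 0.51. Cyclin-dependent kinases, G1 cyclins and their inhibitors were higher in 3 and lower in 6 of 25 (3 and 11 with library size alone). Of the cyclin-dependent kinase inhibitors, CDKN2B, a known TGF-β target that blocks CDK4 and CDK6, rose by 1.32 ± 0.11, while CDKN1B (-0.61 ± 0.08) and CDKN2C (-0.61 ± 0.07) fell. CCND1, cyclin D1, rose by 0.76 ± 0.05 and CDK6 by 0.62 ± 0.07. CCNE1, cyclin E1, was the single replication gene that rose (0.43 ± 0.08).

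Among 15 tested chemokines 5 were lower and 2 higher. CXCL12, the ligand of CXCR4, had 106, 96.6 and 105 CPM in TGFB against 39.6, 33.9 and 39.4 CPM in con (log2 fold change 1.45 ± 0.1, adjusted p = 8.74e-11). The neutrophil attractants CXCL1 (-1.12 ± 0.09), CXCL5 (-1.04 ± 0.12), CXCL6 (-1.26 ± 0.18) and CXCL8 fell, CXCL8 with 40.6, 37.1 and 29.4 CPM in TGFB against 65.3, 59.1 and 68.9 CPM in con (log2 fold change -0.85 ± 0.12, adjusted p = 5.35e-06). CXCL3 was not called (-0.33). In the complement and coagulation list 11 of 32 genes were lower and 5 higher. F3, tissue factor, had 209.9, 223 and 196 CPM in TGFB against 481, 461 and 454 CPM in con (log2 fold change -1.15 ± 0.06, adjusted p = 1.61e-13). The tissue factor inhibitor TFPI (-1.53 ± 0.13) and the plasminogen activator PLAT (-0.96 ± 0.07) also fell, and the protease inhibitor SERPINE2 rose (1.26 ± 0.07).

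Of 30 Toll-like receptor and nucleic acid sensor genes 4 were higher and 7 lower. AIM2, a sensor of cytosolic DNA (-1.58 ± 0.18), IFI16 (-0.71 ± 0.07) and the adaptor MAVS (-0.34 ± 0.06) fell, while the adaptor STING, listed as TMEM173 (0.71 ± 0.07), and NLRP1 (0.71 ± 0.06) rose. TRIM25, an E3 ligase, fell by 0.92. Of 36 regulators of cell death 4 were higher and 8 lower (2 and 13 with library size alone). The inflammatory caspase CASP4 (-1.01 ± 0.08), the survival protein BCL2L1 (-0.57 ± 0.08) and BIRC3 (-0.76 ± 0.12) fell, and MCL1 was not called (0.02).

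Noncoding transcripts were called higher more often than lower. Of 991 long intergenic RNAs 120 were higher and 57 lower, and of 1321 antisense RNAs 122 were higher and 28 lower. Protein-coding genes split 1800 higher to 2104 lower. With library size alone the intergenic RNAs split 105 to 84, the antisense RNAs 104 to 55 and the protein-coding genes 1072 to 4345. The median noncoding gene tested had far fewer counts (18.5 for antisense RNAs, 21.7 for intergenic RNAs, a mean over the 6 libraries) than the median coding gene (837), and without a known strand setting an antisense RNA cannot be told apart from its partner. Among well-known long noncoding RNAs 19 of 35 were higher and 3 lower. NEAT1, the scaffold of nuclear paraspeckles, had 351, 362 and 387 CPM in TGFB against 170.1, 143 and 145 CPM in con (log2 fold change 1.26 ± 0.08, adjusted p = 1.54e-11). CYTOR had 106, 105 and 116 CPM in TGFB against 44.2, 46 and 46.4 CPM in con. KCNQ1OT1, an imprinted antisense RNA, rose by 1.17 ± 0.09, NORAD fell by 0.2, and MALAT1, the neighbour of NEAT1, was not called (0.06).

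Some noncoding and coding transcripts hold microRNA hairpins, from which short RNAs are cut that pair with target mRNAs through their seed, bases 2 to 8. Mature microRNAs were not measured here, so the values are of the host transcripts only. Of 673 host genes with a mean of at least 50 counts, 143 were higher and 115 lower, against 1933 and 2066 of all 13130 genes at that count. The hosts below were named after their values were seen, for the well-known microRNAs they hold. The sequences are shown because some hosts at separate loci carry the same seeds. Several of the sequences have a seed shared with no other sequence listed. They are mature microRNAs from RefSeq (GRCh38.p14), 5′ to 3′, with the seed in capitals.
hsa-miR-21-5p (in VMP1): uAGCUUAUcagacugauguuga
hsa-miR-23a-3p (in AC020916.1): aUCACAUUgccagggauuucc
hsa-miR-27a-3p (in AC020916.1): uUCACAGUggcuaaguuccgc
hsa-miR-24-3p (in AC020916.1): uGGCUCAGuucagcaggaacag
hsa-miR-455-3p (in COL27A1): gCAGUCCAugggcauauacac
hsa-miR-100-5p (in MIR100HG): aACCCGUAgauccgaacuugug
hsa-miR-99b-5p (in SPACA6): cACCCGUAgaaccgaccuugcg
hsa-miR-125b-5p (in MIR100HG): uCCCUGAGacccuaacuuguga
hsa-miR-125a-5p (in SPACA6): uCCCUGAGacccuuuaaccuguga
hsa-let-7a-5p (in MIR100HG): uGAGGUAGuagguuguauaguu
hsa-let-7e-5p (in SPACA6): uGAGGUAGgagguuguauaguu
hsa-let-7b-5p (in MIRLET7BHG): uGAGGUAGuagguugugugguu
hsa-miR-17-5p (in MIR17HG): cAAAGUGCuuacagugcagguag
hsa-miR-20a-5p (in MIR17HG): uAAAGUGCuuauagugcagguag
hsa-miR-29b-3p (in MIR29B2CHG): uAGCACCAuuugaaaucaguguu
hsa-miR-29c-3p (in MIR29B2CHG): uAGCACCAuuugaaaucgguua
hsa-miR-30a-5p (in LINC00472): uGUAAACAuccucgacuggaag
hsa-miR-30c-5p (in LINC00472): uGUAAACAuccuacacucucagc
hsa-miR-137-3p (in MIR137HG): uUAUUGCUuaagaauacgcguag

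VMP1, whose gene span holds the miR-21 hairpin (mature miR-21-5p at chr17:59841273-59841294, plus strand), had 354, 368 and 338 CPM in TGFB against 132, 113 and 130.3 CPM in con (log2 fold change 1.5 ± 0.07, adjusted p = 2.23e-13). miR-21 is a microRNA known to rise in fibrotic tissue. AC020916.1, which holds the cluster of miR-23a, miR-27a and miR-24 (mature miR-23a-3p at chr19:13836595-13836615, minus strand), had 45.2, 48.4 and 48.3 CPM in TGFB against 15.7, 13.2 and 13.6 CPM in con (log2 fold change 1.74 ± 0.11, adjusted p = 1.54e-11). COL27A1, a fibrillar collagen gene with the miR-455 hairpin within its span, had 199, 189 and 205 CPM in TGFB against 40.5, 41.8 and 44.5 CPM in con (log2 fold change 2.23 ± 0.08, adjusted p = 5.64e-16). The exons of AC020916.1 overlap genes of the other strand over 12% of their length. The groups did not overlap in any of the 3 hosts, as was so for 40.8% of all genes tested.

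The host transcripts of a pair of related clusters rose. MIR100HG holds miR-100, miR-125b and let-7a, and SPACA6 holds miR-99b, miR-125a and let-7e, and each member of one cluster has the seed of its counterpart in the other. MIR100HG had 90.4, 86.5 and 76.9 CPM in TGFB against 54.6, 49.8 and 55.7 CPM in con (log2 fold change 0.66 ± 0.08, adjusted p = 1.19e-06). SPACA6 had 15.9, 13.7 and 18.8 CPM in TGFB against 7.12, 6.07 and 7.37 CPM in con (log2 fold change 1.23 ± 0.14, adjusted p = 3.16e-07). MIRLET7BHG, which holds let-7b with the same seed as let-7a and let-7e, rose by 1.29 ± 0.16. The host of the miR-17 cluster, MIR17HG, was at 4.08, 4.19 and 3.51 CPM in TGFB and at 1.77, 1.3 and 1.53 CPM in con. MIR29B2CHG, host of miR-29b and miR-29c, which are known to target collagen mRNAs, was at 2.22, 2.24 and 3.38 CPM in TGFB and at 1.05, 0.833 and 1.31 CPM in con (log2 fold change 1.29 ± 0.3, adjusted p = 0.00235). Among the hosts that fell, MIR137HG had 4.94, 5.75 and 4.25 CPM in TGFB against 8.25, 9.13 and 11.1 CPM in con, and LINC00472, with miR-30a and miR-30c of 1 seed, had 2.53, 3.36 and 2.67 CPM in TGFB against 5.08, 3.6 and 5.31 CPM in con (log2 fold change -0.71 ± 0.19, adjusted p = 0.00649). These last 4 hosts were counted at low levels.

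**Figure D5:**
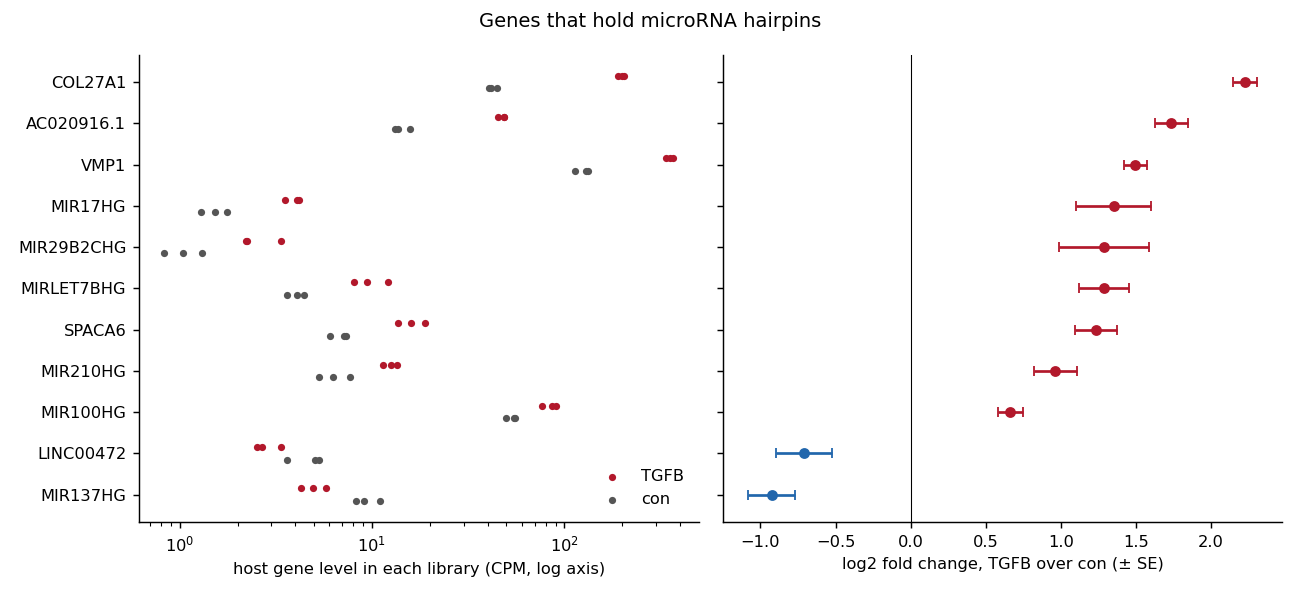
Left, the level of 11 genes that hold microRNA hairpins in each library (CPM, log axis), with the 3 TGFB libraries in red above and the 3 con libraries in grey below. Right, the fitted log2 fold change of TGFB over con with its standard error. The 9 upper hosts were higher in TGFB, from 0.66 for MIR100HG to 2.23 for COL27A1, and LINC00472 and MIR137HG were lower. MIR210HG, the host of miR-210, rose by 0.96.

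The TGF-β1 effect was also fitted in the siRNA cells, and the difference between the effects was tested for the genes named by size of change. Over all genes 714 (3.85%) differed at an adjusted p under 0.05. Of the 12 largest rises 7 differed, and of the 12 largest falls 8, and in each of these 15 the effect with siRNA was the smaller in size and of the same sign. These genes were picked for large changes without siRNA, and the same untransfected libraries enter the test. That choice favours a smaller effect with siRNA, so the shared direction is not a separate result. JAG1 rose by 1.57 on the log2 scale with siRNA and by 3.73 without it (adjusted p = 3.31e-12 for the difference). PMEPA1 rose by 4.64 with siRNA and by 4.91 without it, a difference that did not pass the test. The siRNA cells were treated 48 h after transfection, and transfected cells without siRNA against NAT10 are not analysed here, so transfection and loss of NAT10 cannot be told apart.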

How the data were processed

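The authors deposited raw read counts per gene and FPKM values (counts scaled by gene length and library) for 12 libraries of 58735 genes. Per the submitters' processing notes, reads were trimmed with fastp and aligned to hg38 with HISAT2 2.2.1. The counting tool and the strand setting were not given in the sources used here. All gene positions equal those of GENCODE 29. The deposited FPKM equal counts over length and library up to 1 factor per library, and were used only for an alternative.

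Counts of all 12 libraries were fitted in 1 model with 4 group means using edgeR 4.0.16 in R 4.3.3 (TMM scaling, filterByExpr, glmQLFit, glmQLFTest, Benjamini-Hochberg adjustment over the 18560 genes kept). Genes were called at an adjusted p under 0.05. The standard error is the log2 fold change over the root of the F statistic. The fit was tested on simulated data. Depth was 29797990 to 35132582 counts per library in TGFB and con, and all replicates differed by more than counting noise. A sentence without a p rests on the same fit. In parentheses after a gene, a value with ± is its log2 fold change and standard error, and one without ± belongs to a gene that was not called.

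Named genes are the 12 largest called changes in each direction with a mean of at least 50 counts and no overlap between groups, in each family up to 4 called members per direction with the smallest p and up to 2 well counted members not called, the 10 largest gains and losses of CPM, and genes with 3 counts or fewer in every library of 1 group. Some genes and lists of genes are not reported here. A few others are said to have been named after their values were seen. The groups of genes and the 77 lists were chosen with earlier results of these data known. A comparison of promoter motifs was void, since RefSeq promoters matched 11520 of the 18560 genes tested. Alternatives used other scalings, filters, DESeq2 1.42.0, limma 3.58.1, the FPKM and fewer libraries.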

Additional observations from a re-analysis of the deposited data

Results flagged for a closer look

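The TGF-β1 effect differed between siRNA cells and untransfected cells in 27 of the 46 genes named for the size of their change, by the interaction term of the edgeR model (adjusted p under 0.05 over all genes). Over all 18560 genes tested 714 (3.85%) differed. The values are log2 differences, the effect with siRNA minus that without. The genes were picked for large changes without siRNA, and the untransfected groups enter both the choice and the test.

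Among the largest rises the difference was -3.82 for PKNOX2, -3.49 for AC037198.1, -2.31 for EGR2, -2.16 for JAG1 and for ACTBL2, -1.93 for MYCT1 and -1.81 for LPAR5. AC037198.1 lies within the span of THBS1 on the same strand, and whether its counts are separate was not tested. GDF6, with at most 2 counts in any con library, had a fitted difference of -5.99, which depends on the prior count. It stood at 3.06, 3.2 and 2.7 CPM in the TGFB libraries.

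Among the largest falls the difference was 1.93 for EVI2B, 1.91 for SERPINB2, 1.61 for EVI2A, 1.40 for GRIN2A, 1.36 for AL713998.1, 1.12 for APLN, 1.06 for MYPN and 0.85 for PTX3, so each of these fell less with siRNA.

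Of the genes with the largest gain in CPM, the difference was -0.87 for THBS1 and for TGFBI, -0.68 for COL1A1, -0.53 for FN1, -0.52 for ACTN1 and -0.40 for TNC. Of those with the largest loss, it was 1.07 for RHOBTB3, 0.45 for AHNAK, 0.34 for COL12A1, 0.29 for NR2F2 and 0.24 for AXL.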

How the results depend on the processing

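With library size alone in place of TMM, 1410 genes were higher and 4623 lower in TGFB, against 2213 and 2259, and 15 families had more members higher and 56 more members lower, against 45 and 27. These counts stayed within 1.5 times under the other alternatives run. Leaving out 1 library at a time gave 1744 to 1882 genes higher and 1835 to 1973 lower, with 36 to 44 families of more members higher and 25 to 29 of more members lower. The replicate numbers do not pair the samples, since the correlations of same-numbered libraries were -0.03, -0.10 and 0.07. With the replicate block 2042 genes were higher and 2071 lower. Of 268 genes named 257 kept their side of the threshold under all alternatives run, and no called gene changed direction. AC233968.1 was no longer called with voom (-2.89) or on the FPKM scale, and MIR29B2CHG and ACTN2 were not with FPKM and a pseudocount of 1. ACTA1 was not called with voom, with the replicate block or without the count filter, nor was it, ACTN2 or TNNT1 when 1 library was left out. CLOCK, CXCL3, EGFR, JUND and KLF6, not called with TMM, were called lower with library size alone. JUN and CLOCK were called when only TGFB and con were fitted, CLOCK also without the count filter. The interaction of PKNOX2 was not called with DESeq2, and those of DIO2 and DST, not called in edgeR, were called with DESeq2 and with library size alone. Genes with few counts, among them most noncoding RNAs, were measured less precisely, and differences of the size called in coding genes could be missed at this depth.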

Other observations

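Other families held single changes that the text has not described. Among HOX genes, 7 of 32 were higher and 3 lower (3 and 4 with library size alone), with HOXD10 (0.89 ± 0.1) and its neighbour HOXD11 (1.33 ± 0.19) rising. In the fibroblast growth factor family, with its receptors and inhibitors, 3 of 18 were higher and 5 lower (3 and 6 with library size alone). FGF1 (0.59 ± 0.07) and FGF2 (0.67 ± 0.08) rose and the feedback inhibitor SPRY2 fell (-0.55 ± 0.08). In the Hedgehog pathway the effector GLI2 rose (0.76 ± 0.08), while GLI3 (-0.55 ± 0.1) and the receptor and target PTCH1 (-0.55 ± 0.09) fell.

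Of 30 interleukin and cytokine receptors 4 were higher and 5 lower (4 and 12 with library size alone). Receptor chains of interleukins 4 and 13 rose, IL4R by 0.76 ± 0.07 and IL13RA1 by 0.52 ± 0.08, while LIFR fell (-0.56 ± 0.08). Golgi glycosyltransferases, with 15 of 58 higher and 11 lower (12 and 16 with library size alone), included rises of GALNT10 (1.3 ± 0.06) and ST3GAL1 (0.94 ± 0.07) and a fall of ST3GAL5, the synthase of ganglioside GM3 (-1.31 ± 0.17). Of 25 serine, glycine and one-carbon enzymes 6 were higher and 4 lower, which turned to 4 and 10 with library size alone. The one-carbon enzyme MTHFD2 (0.38 ± 0.07) and cystathionine β-synthase, CBS (1.08 ± 0.23), rose. The rise of CBS was 0.61 without replicate 1 of TGFB (adjusted p = 0.0293) and 1.32 without replicate 3 of TGFB. Carriers of metals and phosphate split 5 higher to 4 lower of 29 (2 to 8 with library size alone). Ferroportin, SLC40A1 (-0.94 ± 0.16), and ferritin heavy chain, FTH1 (-0.38 ± 0.09), fell. The metallothioneins diverged, with MT1X higher (1.38 ± 0.15) and MT1F lower (-0.44 ± 0.11), in a family of close paralogs whose shared reads the counting could have split.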
